A study of Homo sapiens with 12 samples.

Results

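The deposited annotation classed m6A peaks in oral squamous cell carcinoma (OSCC) as coding sequence (CDS), untranslated region (UTR), start codon, stop codon or exon. The peaks of OSCC cells classed only as exon are described here. They were selected by that class alone, without any measured value, and comprised 2722 of the 14586 peaks in 4 lists, on 1477 host genes. HSC3 and CAL33 are established human OSCC lines, and each was profiled by MeRIP-seq, in which RNA fragments bound by an anti-m6A antibody are sequenced beside the unselected input. Cells received 100 nM rapamycin, an inhibitor of the mTOR kinase used in the study to induce autophagy, for 3 days or served as controls, with no other agent or genetic change named in the labels. Each list rested on 1 immunoprecipitated library and 1 input, so there were no replicates of a peak value, and the depth of these libraries is unknown. RNA-seq comprised 4 libraries of between 18492273 and 23763098 counts, 2 with rapamycin and 2 controls. Its labels name HSC3 for both rapamycin libraries and CAL33 for both controls. In the MeRIP-seq labels, by contrast, HSC3 libraries are numbered 1 and CAL33 libraries 2 under either treatment, so no RNA-seq library was assigned to a line. The epithelial adhesion genes EPCAM and CDH1 were present in all 4 libraries, at 157 to 272 and 180 to 334 CPM (counts scaled to library size), whereas the squamous keratin KRT14 was at 0 CPM in both number 1 libraries and at 1.26 and 9.34 in the number 2 libraries. TP63, a squamous transcription factor, had 13.5 and 19.7 CPM in the number 1 libraries and 353 and 332 in the number 2 libraries, for rapamycin and control, so the libraries grouped by number rather than by the labelled line.

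m6A is written on RNA mainly by the METTL3 and METTL14 complex at adenines within short motifs such as GGAC, is removed by FTO and ALKBH5 and is read by YTH-domain proteins. In mRNA it is known for its density around stop codons and in long exons, and long noncoding RNAs (lncRNAs) such as MALAT1 carry it too. Antisense RNAs are noncoding transcripts read from the opposite strand of another gene, and pseudogenes are copies or remnants of genes that no longer encode the protein. A noncoding gene has no CDS and no UTR, so its peaks can hardly carry another class than exon. On a protein-coding gene, exon-only is the class given to the peak and does not show that its bases are noncoding. For example, 107 bases of a TRIM33 exon-only peak in CAL33 control also lay in a TRIM33 3′UTR peak of that list.

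Few of the sequences could be read, because only windows from 250 bases before to 50 bases after a gene start (RefSeq, GRCh38.p14) were at hand. Of the 2722 peaks, 19 on 14 hosts shared at least 50 bases with the window of their own gene, and 11 of these held GGAC on the transcript strand inside the peak. GGAC occurred in 66.3% of the 35116 windows of 300 bases, and the stretch of a peak inside a window was usually shorter than that. Sites from 4 hosts are printed because they show a coding host shared by the lists, an antisense host seen only with rapamycin, an antisense host with a peak on the other strand, and a high fold enrichment. They were chosen after the values were seen, capitals mark GGAC, and each is read 5′ to 3′ on the host's strand.
ZBED6, plus strand, chr1:203797290-203797319: agaaaattggaagGGACcttaaagccctct
TMEM44-AS1, plus strand, chr3:194584251-194584280: gaccctgaggagaGGACgagaagacccgag
RNF217-AS1, minus strand, chr6:124962996-124963025: gtctcttggcgagGGACgggcgccgctgac
SLC47A2, minus strand, chr17:19716598-19716627: ggggtggctcgctGGACaaagctggccgtg

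The ZBED6 site lay inside the peaks of HSC3 control, HSC3 rapamycin and CAL33 rapamycin, whose fold enrichments over input were 89.7, 21.9 and 66.5. ZBED6 encodes a zinc-finger transcription factor, and its peak in CAL33 control, with a fold enrichment of 23.8, ended before the site. In each list the ZBED6 peak overlapped peaks of ZC3H11A on the same strand, so it cannot be given to ZBED6 alone. The ZC3H11A peaks listed 89.7 in HSC3 control, 18.2 and 21.6 in HSC3 rapamycin, 28.4 in CAL33 control and 79.8 in CAL33 rapamycin. TMEM44-AS1 had exon-only peaks only in the rapamycin lists, with fold enrichments of 27.3 in HSC3 and 93.8 in CAL33. RNF217-AS1 had peaks only in CAL33, at 42.6 in control and 102 with rapamycin, and each shared bases with a CDS peak of RNF217 on the other strand. SLC47A2, a proton-coupled exporter of organic cations, had its site at the edge of a CAL33 control peak with a fold enrichment of 413. A match to 4 bases describes the window and does not mark a methylated adenine.

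Protein-coding genes hosted most exon-only peaks. Of the 2722 peaks, 1670 (61.4%) lay on 815 coding genes, 446 (16.4%) on 262 antisense RNAs, 334 (12.3%) on 192 other lncRNAs, 226 (8.30%) on 180 pseudogenes, 11 on the 2 mitochondrial ribosomal RNAs and 35 on 26 genes of other types. Exon-only was the class of 1052 of the 1107 peaks on noncoding hosts of any type and of 12.4% of the 13479 peaks on coding hosts. Of the pseudogene peaks, 110 were on processed pseudogenes, which are copies made from a spliced RNA, and 61 on transcribed unprocessed ones. Host types are those of the deposited lists, and TUG1, for example, is filed there as antisense.

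The make-up of the hosts varied between lists. HSC3 control held 772 exon-only peaks, 443 on coding hosts, 138 on antisense RNAs, 108 on other lncRNAs and 78 on pseudogenes. HSC3 rapamycin held 776, with 457, 130, 109 and 62 in the same order. CAL33 control held 626, with 426, 89, 56 and 46, and CAL33 rapamycin held 548, with 344, 89, 61 and 40. Noncoding hosts thus took 42.6% (95% Wilson interval 39.2 to 46.1) and 41.1% (37.7 to 44.6) in HSC3, and 31.9% (28.4 to 35.7) and 37.2% (33.3 to 41.3) in CAL33, for control and rapamycin. Both HSC3 shares were above the CAL33 control share, while the intervals of the CAL33 rapamycin share and the HSC3 shares overlapped. These intervals cover counting error only and treat peaks as separate counts, although many share a host or a transcript.

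**Figure D1:**
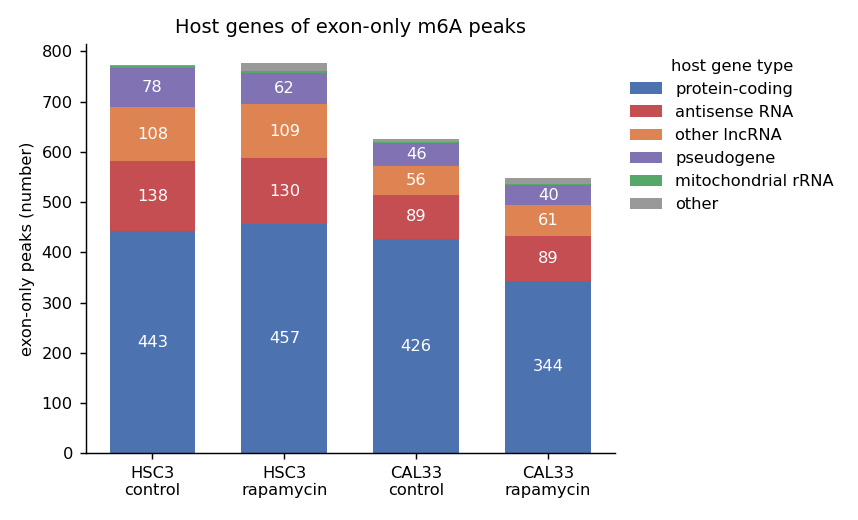
Stacked bars give the number of exon-only peaks in each of the 4 lists (x axis), split by the type of the host gene. Coding hosts form the largest block of each bar, between 344 and 457 peaks, and pseudogenes between 40 and 78.

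Exon-only peaks had fold enrichments and lengths close to those of CDS and 3′UTR peaks. Their median fold enrichment was 33.6 in HSC3 control, 32.8 in HSC3 rapamycin, 46.8 in CAL33 control and 40.2 in CAL33 rapamycin, beside 33.6, 32.8, 38.3 and 34.8 for CDS peaks. The log2 ratio of these medians averaged 0.12 ± 0.15 (SD, n = 4 lists), and an exact two-sided sign-flip permutation test over the lists gave p = 0.5. Against 3′UTR peaks the log2 ratio averaged -0.04 ± 0.10 (p = 0.375 in the same exact test). Median lengths were 209 to 210 bases for exon-only peaks and 210 to 211 for CDS peaks. Peaks whose listed false discovery rate exceeded 0.05 were more frequent among exon-only peaks, at 20.1%, 12.2%, 7.99% and 12.2% in the order above. That share was 5.68 ± 2.53 percentage points (SD, n = 4) above CDS peaks and 3.38 ± 2.14 points above 3′UTR peaks, higher in 4 of 4 lists each time (exact permutation p = 0.125). With 4 lists, 0.125 is the smallest p this exact test can give, and over the 52 comparisons of this kind the adjusted p was at least 0.224, so no such comparison could pass 0.05.

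Host types differed in the share of uncertain peaks. On pseudogene hosts, 37.2%, 25.8%, 19.6% and 27.5% of the peaks in the 4 lists exceeded the false discovery rate of 0.05, which was 17.7 ± 4.17 points (SD, n = 4) above coding hosts (higher in 4 of 4, exact permutation p = 0.125). Pseudogene peaks were also shorter, with a difference in the median of -23.3 ± 14.2 bases. Other lncRNA hosts had median fold enrichments of 20.8, 32.8, 29.5 and 24.3, beside 30.8, 32.8, 51.1 and 42.9 for coding hosts. The log2 ratio averaged -0.55 ± 0.38, lower in 3 of 4 lists and equal in HSC3 rapamycin (exact permutation p = 0.25). Reads from a pseudogene and its parent gene can be near-identical, so the assignment of pseudogene peaks is uncertain.

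On coding genes, exon-only peaks sat between CDS and 3′UTR peaks along the gene. The median position of the peak centre, counted from 0% at the gene's start to 100% at its end, was 87.7%, 86.4%, 87.2% and 87.4% in the 4 lists. CDS peaks had medians of 71.7%, 70.9%, 70.5% and 68.7%, and the difference averaged 16.8 ± 1.41 points (SD, n = 4; exact permutation p = 0.125). The difference from 3′UTR peaks was -7.72 ± 0.56 points, lower in 4 of 4 lists. Their host genes were also compact, with a median genomic span of 23.9, 20.9, 20.2 and 22.6 kb beside 42.4, 39.4, 37.3 and 40.3 kb for hosts of CDS peaks. The log2 ratio of spans was -0.86 ± 0.04 against CDS hosts and -0.65 ± 0.10 against 3′UTR hosts, lower in 4 of 4 lists. RefSeq gave a noncoding transcript for 18.9% of the exon-only peaks' coding hosts, counted per peak, beside 12.2% for CDS and 16.5% for 3′UTR peaks. Exon-only peaks shared bases with a RefSeq start window of any gene in 3.86% of cases, CDS peaks in 1.37% and 5′UTR peaks in 26.6%.

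For most coding hosts, exon was the only class seen. Of the 815 coding hosts, 628 (77.1%) had exon-only peaks and no peak of another class in any list. The matching share was 61.5% of 2692 genes with CDS peaks and 63.6% of 2888 genes with 3′UTR peaks. A gene with 1 peak has 1 class by construction. Among the 457 that had at least 2 peaks this share was 59.1%, beside 42.9% of 1817 genes with CDS peaks and 40.1% of 1756 genes with 3′UTR peaks, counted the same way. When a coding-host exon-only peak overlapped a peak of the same gene in another list, the partner was exon-only in 1540 of 1633 pairs (94.3%), 3′UTR in 61 and CDS in 28. Pairs of 2 exon-only peaks count from each side here and other pairs once, which raises the exon-only share. A shared exon-only peak of a coding gene thus mostly kept its class between lists. The same share was not computed for CDS or UTR peaks.

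Exon-only peaks often lay opposite a second listed peak on the other DNA strand. They shared at least 1 base with an other-strand peak of the same list in 10.1%, 13.9%, 10.5% and 13.1% of cases, beside 1.97%, 2.14%, 1.68% and 1.98% of CDS peaks and 5.54%, 4.67%, 6.03% and 6.20% of 3′UTR peaks. The excess over CDS peaks was 9.98 ± 1.76 points (SD, n = 4; 4 of 4 lists, exact permutation p = 0.125). Of the 324 exon-only peaks concerned, 191 were on antisense hosts, where 39.1%, 41.5%, 47.2% and 46.1% of the peaks lay opposite another peak. Other lncRNA hosts followed with 11.1%, 22.9%, 14.3% and 19.7% (57 of 334 peaks), and hosts of other types had 14 of 35. The same share was 1.81%, 3.72%, 3.05% and 3.20% for exon-only peaks of coding hosts, a gap of 40.5 ± 3.47 points (4 of 4 lists, exact permutation p = 0.125). An antisense RNA is annotated against another gene by definition, and 344 of the 446 antisense peaks (77.1%) lay within the span of a coding gene, so part of this overlap is given by the host type.

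**Figure D2:**
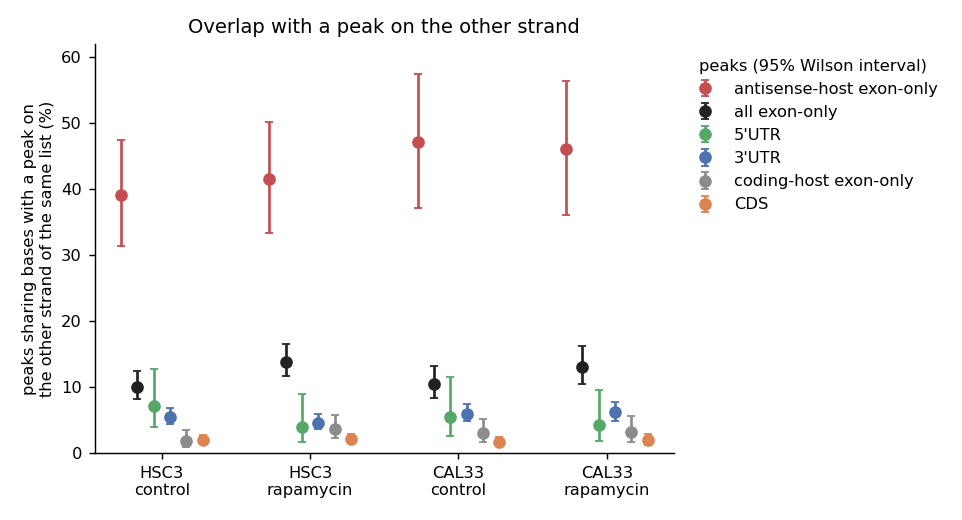
Points give the percentage of peaks that share bases with a peak on the other strand of the same list, per list (x axis) and peak group, and bars are 95% Wilson intervals. Antisense-host exon-only peaks stand at 39.1% to 47.2%, above the other groups plotted, whose points are at or below 13.9%.

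The paired peaks frequently carried the same value. Counted from the exon-only peak, so that 2 exon-only peaks facing each other count from each side, there were 330 such pairs, of which 218 (66.1%) listed exactly the same fold enrichment on both strands and 234 (70.9%) lay within 0.1 on the log2 scale. In 208 of the 218, the false discovery rate was identical too, although only 35 had the same length. Any 2 peaks drawn from a list had equal fold enrichments in 0.771% to 1.6% of cases. The shared bases covered a median of 99% of the shorter peak. The labels name a MeRIP-seq library kit that does not mark strand, so reads of an antisense RNA and of its partner cannot be told apart here, and which of the paired genes carried the m6A was not tested.

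The partners of antisense hosts were mostly peaks of coding genes. Of the 196 pairs with an antisense host, 193 had a coding gene opposite. Over all 196, the partner peak was classed as CDS in 80, as 3′UTR in 80, as 5′UTR in 14 and as exon-only in 21. These made 113 gene pairs, 74 seen in 1 list, 39 in at least 2 and 7 in all 4. The 7 were AC005523.2 with FEM1A, AL139099.2 with MGAT2, AC011446.2 with IER2, AC090617.4 with DPH1 and with OVCA2, AC009088.3 with PRSS8, and DDIT4-AS1 with DDIT4. The DPH1 and OVCA2 pairs shared the same AC090617.4 peak in each list. In CAL33 control, the AC090617.4 and AC009088.3 peaks were over the false discovery rate threshold, with log10 values of -0.958 and -0.691. The pairs of these hosts thus reached all 4 lists only through uncertain peaks. FEM1A is a substrate receptor of an E3 ubiquitin ligase, MGAT2 acts in N-glycan synthesis, IER2 is an immediate early gene, DPH1 acts in diphthamide synthesis, PRSS8 is the protease prostasin, and DDIT4 is an inhibitor of mTORC1.

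The MGAT2 locus shows the pattern in each list. AL139099.2 peaks around chr14:49622053-49622350 on the minus strand had fold enrichments of 151 in HSC3 control, 41 in HSC3 rapamycin, 651 in CAL33 control and 284 in CAL33 rapamycin, and the MGAT2 CDS peak opposite listed the same number each time. At AC011446.2 and IER2 the values were 544 on both strands in HSC3 control and 166 on both in CAL33 control. With rapamycin, HSC3 had a pair with 10.9 on both strands and a pair with 90 against 62.8, and CAL33 had 18.8 against 42.9. The AL160408.2 peak from base 234607008 of chromosome 1, the strongest exon-only peak of all, listed 4010 in HSC3 rapamycin beside 6160 for IRF2BP2, a transcriptional corepressor, on the other strand. In CAL33 this pair listed 114 against 47.4 in control and 9.99 on both strands with rapamycin. Equal values were thus common without being the rule at each locus.

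Antisense hosts with a peak opposite had few RNA-seq counts. Of the 111 such hosts, 57 (51.4%) had fewer than 10 counts summed over the 4 libraries, and 41 (36.9%, 95% Wilson interval 28.5 to 46.2) passed the low-count filter of the RNA-seq test. Of the 151 antisense hosts without a peak opposite, 20 (13.2%) had fewer than 10 counts, and 113 (74.8%, interval 67.4 to 81.1) passed. The 110 coding partners passed in 104 cases (94.5%). AL160408.2 and AC011446.2 had 0 counts in all 4 libraries, which allows up to 3 counts in each, while their partners IRF2BP2 and IER2 totalled 7949 and 9530. AL139099.2 had 0 and 1 counts with rapamycin and 6 and 1 in controls beside a total of 2556 for MGAT2, and DDIT4-AS1 had 2 counts in all beside 40692 for DDIT4. The RNA-seq kit marks strand, but whether strand was used in counting is not stated, and overlapping genes may lose shared reads.

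**Figure D3:**
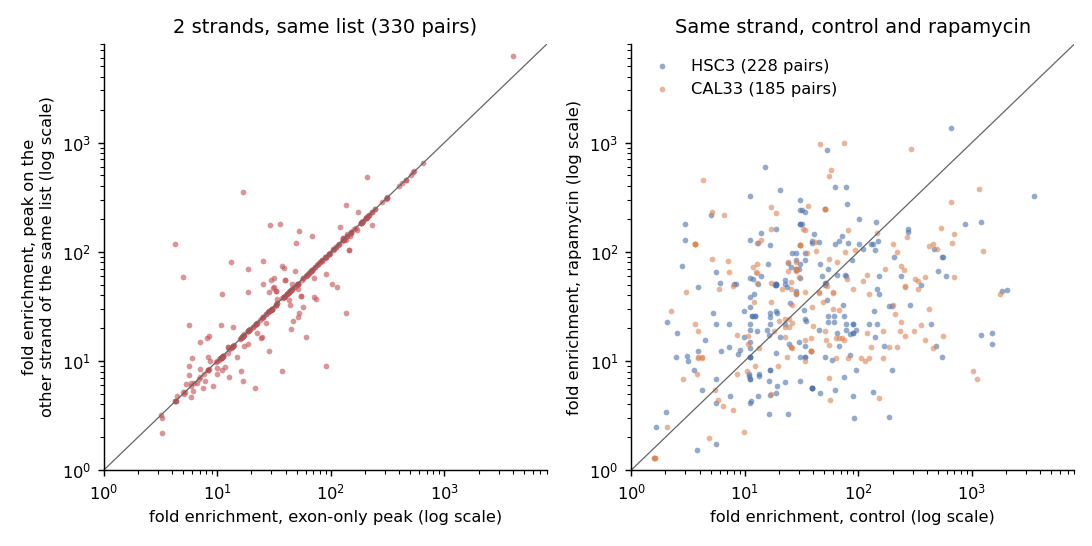
Each point is a pair of overlapping peaks, with fold enrichment on log scales on both axes and the line marking equal values. On the left, exon-only peaks are set against peaks on the other strand of the same list (330 pairs, 218 of them equal), and on the right, exon-only peaks shared by control and rapamycin of a line are set against each other (228 pairs in HSC3, 185 in CAL33), scattered widely about the line.

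Most exon-only peaks had no counterpart under the other treatment. In HSC3, 558 of 772 control peaks (72.3%) overlapped no same-strand rapamycin peak and were called lost, and 568 of 776 rapamycin peaks (73.2%) overlapped no control peak and were called gained. In CAL33, 457 of 626 (73.0%) were lost and 382 of 548 (69.7%) were gained. Peaks of all classes together had no counterpart in 71.8%, 71.6%, 74.9% and 70.1% of cases for HSC3 control, HSC3 rapamycin, CAL33 control and CAL33 rapamycin. The exon-only shares were near these figures, and with 1 pair of libraries per condition a peak missing from a list is no test of a change.

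Sharing differed by host type. For coding hosts, 31.6%, 29.3%, 29.8% and 36.3% of exon-only peaks overlapped a peak of the other treatment in the same line, and for antisense hosts 29.7%, 33.1%, 25.8% and 24.7% did. Other lncRNA hosts followed with 21.3%, 19.3%, 25% and 23.0%, a difference from coding hosts of -9.64 ± 3.56 points (SD, n = 4), lower in 4 of 4 lists. Pseudogene peaks were shared in 8.97%, 11.3%, 6.52% and 7.50% of cases, a difference of -23.2 ± 4.43 points from coding hosts (lower in 4 of 4, exact permutation p = 0.125). Over all lists the peaks merged into 1919 loci, of which 1486 (77.4%) were seen in 1 list, 274 in 2, 93 in 3 and 66 in all 4. Of the 195 pseudogene loci, 181 (92.8%) were seen in 1 list. Peaks over the false discovery rate threshold, which were more frequent on pseudogenes, move with this result, and their part in it was not tested.

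**Figure D4:**
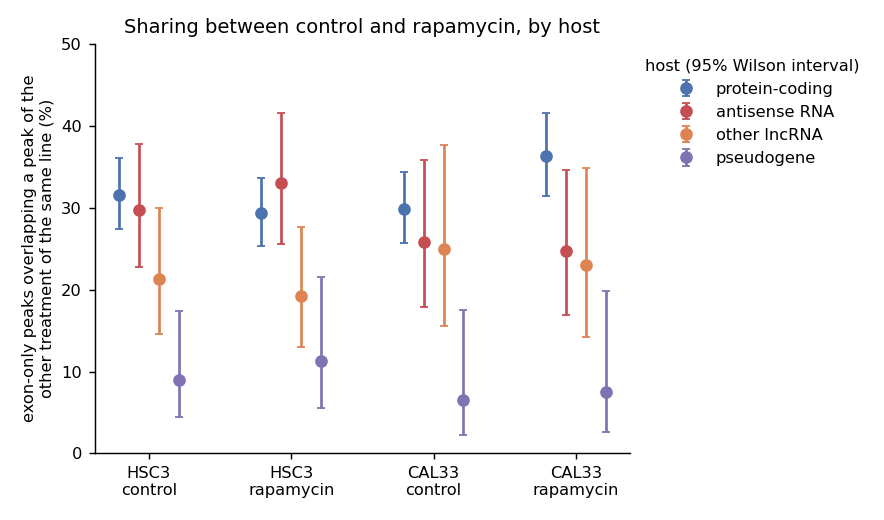
Points give the percentage of exon-only peaks that overlap a peak of the other treatment of the same cell line, by list (x axis) and host type, with 95% Wilson intervals. Pseudogene hosts lie lowest in each list, between 6.52% and 11.3%, and coding hosts between 29.3% and 36.3%.

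Where a peak was shared by both treatments, its fold enrichment was only loosely kept. In HSC3, 113 of 228 overlapping pairs were higher with rapamycin and 115 lower, and in CAL33 82 of 185 were higher and 103 lower. The values differed by more than 4-fold in 38.2% of the HSC3 pairs and 43.2% of the CAL33 pairs. The correlation of log2 fold enrichment across pairs was 0.27 in each line. Across the 330 other-strand pairs, which lie within lists and are pooled over them, it was 0.92. Those pairs list nearly the same bases of the same libraries, whose kit does not mark strand. Their 0.92 is thus no yardstick for agreement between treatments. Pairs share libraries and recurring hosts, so these correlations are descriptions only. Gains and losses that recurred in both lines involved 48 and 51 hosts, 13 and 12 of them noncoding. They made up 50 of the 568 gained and 51 of the 558 lost peaks of HSC3. Recurrence was not counted for peaks of other classes, so these numbers have no background to be set against.

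The hosts with the strongest recurrent gains were RHOB, GABPB1 and KMT5B. RHOB, a small GTPase of endosomes, gained a peak at chr2:20448052-20448319 with a fold enrichment of 247 in HSC3 and 185 in CAL33. GABPB1, a subunit of an ETS-family transcription factor, gained one with 156 in HSC3 and 555 in CAL33, and KMT5B, a histone H4 methyltransferase, one with 219 and 115. The strongest recurrent losses fell on CHD6, a chromatin remodeller, with control values of 550 in HSC3 and 237 in CAL33, on SAP30BP with 729 and 230, and on COL1A1, a collagen chain, with 174 and 285. These are peak positions, not hosts, that came or went. RHOB had 2 exon-only peaks elsewhere in HSC3 control, with fold enrichments of 2.97 and 18.8, and CHD6 had exon-only peaks of 71.1 in HSC3 rapamycin and 38.9 in CAL33 rapamycin at positions that overlapped no control peak of the line.

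Well-known lncRNAs made up part of the noncoding hosts. Of a list of 32, 15 had an exon-only peak, 10 in at least 2 lists and 4 in all, with 72 peaks in total. The highest values given for a host may come from different positions in different lists. MALAT1, a nuclear speckle RNA, had 4 peaks in each list, and its highest fold enrichment, over a region around chr11:65499951-65500880, was 60.8 in HSC3 control, 25.7 in HSC3 rapamycin, 24.7 in CAL33 control and 24.3 in CAL33 rapamycin. Several of these peaks were listed a second time with slightly different ends. NEAT1, the scaffold of paraspeckles, had 2 nearly coincident peaks in each list, the higher at 13.3, 7.62, 4.19 and 10.8 in the same order. NORAD, which binds PUMILIO proteins, had 11 peaks with highest values of 19.2, 27.7, 25.5 and 13.1, and TUG1 had 14 with highest values of 25.9, 97.6, 21.3 and 17.4. None of the 4 held the same order of lists as another.

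The other recurrent lncRNAs were seen in 2 or 3 lists. OIP5-AS1 had 1 peak in each list but CAL33 rapamycin, at 67.3, 13.7 and 12.8. JPX and FTX, neighbouring genes of the X-inactivation centre, had peaks in HSC3 rapamycin and CAL33 control only. Their peaks made 3 pairs on opposite strands with equal fold enrichments. These were 42 and 4.3 in HSC3 rapamycin and 39.4 in CAL33 control. JPX also had a peak of 162 in CAL33 control, the value of an overlapping peak of the pseudogene AL627389.1. KCNQ1OT1, an antisense transcript of an imprinted locus, reached 252 in HSC3 control and 69.7 in CAL33 rapamycin, at positions that did not overlap. UCA1, named for bladder carcinoma, was seen in HSC3 only, at up to 4.88 in control and 38.3 with rapamycin. MIR22HG, the host of a microRNA, was seen with rapamycin only, at 38.3 in HSC3 and 96.5 in CAL33, at separate positions. DANCR, LINC-PINT, MIAT, PVT1 and SNHG15 each had 1 peak in 1 list.

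Among hosts whose exon-only peak overlapped a peak in all other lists, 20 were noncoding and 55 coding. MT-RNR2 and MT-RNR1, the mitochondrial 16S and 12S ribosomal RNAs, were among the noncoding ones. The MT-RNR2 peak starting near base 1701 of the mitochondrial genome had fold enrichments of 3490 in HSC3 control, 324 in HSC3 rapamycin, 1760 in CAL33 control and 41.3 in CAL33 rapamycin, lower with rapamycin in each line. MT-RNR1 listed 650, 1350, 387 and 15.7, so its direction differed between the lines. AC005523.2, opposite FEM1A, listed 44.9, 19.1, 232 and 18.8, and it had 9 exon-only peaks over the lists, as did the lncRNA AC245041.2. The values of MT-RNR2, MT-RNR1 and AC005523.2 each spanned more than 10-fold between the lists.

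Coding hosts shared by all lists also varied between them. KLHL36, a Kelch-domain protein, listed 559, 90.2, 292 and 876 at around chr16:84661941-84662300, and IPMK, an inositol phosphate kinase, listed 207, 89.8, 267 and 136. BRWD1, a bromodomain protein, listed 52.5, 864, 317 and 56.3, and TAF1C, a subunit of the RNA polymerase I selectivity factor, listed 357, 49.2, 109 and 53.6. IER5, an immediate early gene, listed 149, 1550, 664 and 121, the second of these from a peak classed as 3′UTR. An exon-only IER5 peak of HSC3 rapamycin listed 126 and overlapped exon-only control peaks of 39.3 and 149. FURIN, a proprotein convertase, listed 236, 126, 51.1 and 147, with the first and the last classed as 3′UTR. An exon-only FURIN peak of HSC3 control that overlapped the peak of 126 listed 67.3.

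**Figure D5:**
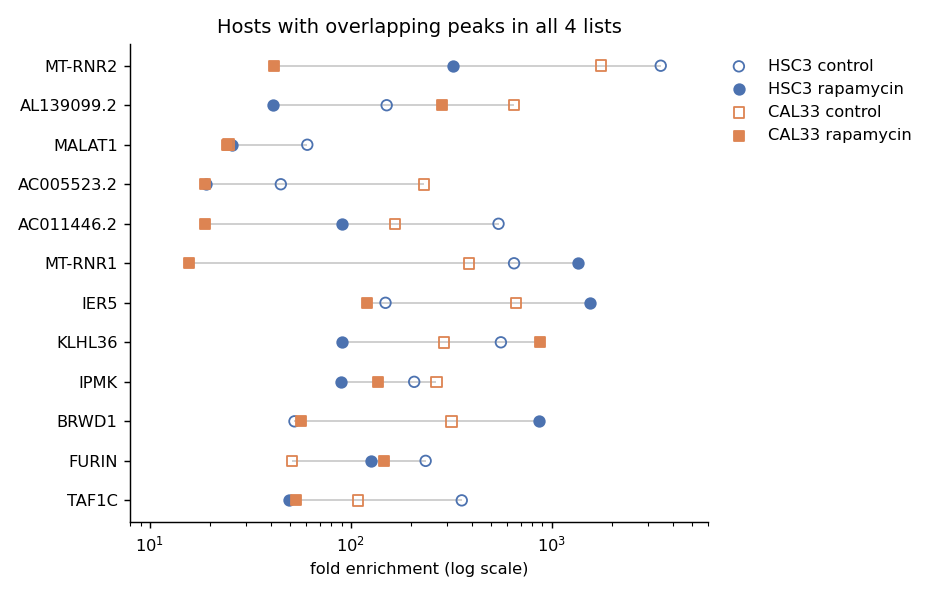
Symbols give the fold enrichment (log scale) in each list, open for control and filled for rapamycin. Shown are the 6 noncoding (top) and 6 coding hosts (bottom) of highest smallest fold enrichment among those with overlapping peaks in all lists. The HSC3 rapamycin value of IER5 and the HSC3 control and CAL33 rapamycin values of FURIN come from 3′UTR peaks. MT-RNR2 is lower with rapamycin in both lines, while KLHL36, BRWD1 and MT-RNR1 move in opposite directions. IER5 and FURIN do so with these 3′UTR values included.

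The strongest exon-only peaks differed from list to list. Beside MT-RNR2, HSC3 control had a peak of 2280 on MUC2, an intestinal mucin gene that the lists file as a processed transcript, at chr11:1094199-1094888. MUC2 had 7 exon-only peaks in that list and none in the others, while RNA-seq counted 1 and 17 reads on it with rapamycin and 0 and 7 in controls. ZBED1, a DNA-binding zinc-finger protein, reached 1630 in CAL33 control, while the overlapping peaks of HSC3 listed 19.4 in control and 5.92 with rapamycin. SOX4, a transcription factor, reached 1000 and KITLG, the ligand of the receptor KIT, reached 965 in CAL33 rapamycin, beside 75.4 and 46.3 for the overlapping peaks of CAL33 control. AHNAK2, which encodes a very large scaffold protein, had most exon-only peaks of any coding gene, 4, 8 and 3 in HSC3 control, HSC3 rapamycin and CAL33 control and none in CAL33 rapamycin. XRCC2, which acts in homologous recombination, had 14, ZNF623 12, and B3GNT5, a glycosyltransferase, and URGCP 11 each.

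Pseudogenes contributed high but isolated peaks. PRELID3BP7, a processed pseudogene, had a fold enrichment of 749 in CAL33 control and 0 RNA-seq counts in all 4 libraries, which allows up to 3 in each. VDAC1P8, a pseudogene of a mitochondrial channel, had 715 in the same list with 4 and 3 counts with rapamycin and 11 and 8 in controls. TMEM198B, a unitary pseudogene, had 454 in HSC3 rapamycin and was well counted, with 561 and 744 counts with rapamycin and 341 and 454 in controls. None of the 3 had an exon-only peak in another list.

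Of the m6A machinery itself, 2 of 23 genes hosted exon-only peaks, while 18 of the 23 had a peak of some class. RBM15B, an RNA-binding subunit of the writer complex, had exon-only peaks in all lists, the highest at 15 in HSC3 control, 167 in HSC3 rapamycin, 166 in CAL33 control and 31.3 in CAL33 rapamycin. These maxima lay at different positions, and the only peaks that overlapped between treatments listed 39.2 in CAL33 control and 31.3 in CAL33 rapamycin. METTL3, the catalytic subunit, had 1 in HSC3 control, at 10.1.

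In RNA-seq, edgeR called no host gene between rapamycin and control unless the replicate number was used as a block. Of the 1477 hosts, 1180 passed the low-count filter, and the quasi-likelihood test of edgeR, after Benjamini-Hochberg adjustment, called 0 of them, as it called 0 of all 15826 genes. At an unadjusted p under 0.05 it gave 38 hosts of the 1180, beside 2.82% of all genes. DESeq2 called 2 hosts, KLHL24 and CARS, and gave no adjusted p for 331 of the 1180. The share of all genes that DESeq2 called was not computed, so these 2 have no background to be set against. With the replicate number as a block, 114 hosts (9.66%) passed, 73 higher and 41 lower with rapamycin, beside 8.15% of all genes, 4.65% higher and 3.5% lower. The share of hosts was thus near the background.

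By host type, the blocked calls on antisense and other lncRNA hosts were mostly higher with rapamycin. Of 154 antisense hosts tested, 15 were higher and 2 lower, and of 132 other lncRNA hosts 15 were higher and 6 lower. Of 786 coding hosts, 40 were higher and 30 lower, and of 96 pseudogene hosts 1 was higher and 3 were lower. The median log2 fold change without the block was 0.31 for antisense hosts, 0.41 for other lncRNA hosts, -0.04 for coding hosts and 0.11 for pseudogene hosts, beside 0.06 for all genes tested. Peak calling needs reads, so hosts are not a random sample of their type, and whether other antisense RNAs and lncRNAs moved alike was not tested.

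Of the 42 hosts named by rule, 35 were tested and 6 passed with the block, beside 8.15% of all genes, and none without it. They were picked partly by their peak values. NEAT1 had 364 and 458 CPM with rapamycin and 84.3 and 254 in controls for numbers 1 and 2, a log2 fold change of 1.48 (edgeR with replicate block, adjusted p = 0.00623). MT-RNR2 had 9865 and 16277 CPM with rapamycin and 7131 and 4067 in controls, a log2 fold change of 1.23 with the block (edgeR, adjusted p = 0.0377). Its RNA was thus higher in both pairs, while the fold enrichment of its peak near base 1701 was lower in both lines. A second MT-RNR2 peak shared by the HSC3 lists had 65.4 in control and 61.6 with rapamycin. UCA1 had 104 and 2.19 CPM with rapamycin and 253 and 6.8 in controls, a log2 fold change of -1.43 with the block (edgeR, adjusted p = 0.00276), and number 2 lay far below number 1 in each treatment. RHOB rose by 0.94, TMEM198B rose by 1.0 and KITLG fell by 1.20 on the log2 scale with the block, at edgeR adjusted p of 0.0262, 0.0454 and 0.0177. RHOB had its recurrent gained peak and KITLG its high CAL33 peak with rapamycin, and a fold enrichment over input does not follow the amount of RNA by itself. Without the block the lowest unadjusted p of the 35 was 0.0527, and as the cell line labels contradict the numbering, the pairing behind the blocked values is uncertain.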

How the data were processed

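For MeRIP-seq, the authors deposited 1 list of peaks per immunoprecipitated library and its input. The fold enrichment in these lists is a ratio of immunoprecipitated RNA to input that the authors made for each pair when they called the peaks, and a log10 false discovery rate stands beside it. The log10 p-value and a score column deposited beside them were not used. For RNA-seq, the authors deposited raw counts per gene, which they titled HTSeq counts. The submitters' processing notes name cutadapt 2.5, HISAT2 2.1.0, featureCounts 1.6.3, HOMER 4.10.4 and hg38 without their roles. The peak caller and its settings are not given in the sources used here.

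Peaks with the class exon were taken from the 4 lists, and positions are given counted from 1. The depth of the MeRIP-seq libraries is unknown, so intervals on shares cover the counting of peaks only (95%, Wilson). Overlap meant at least 1 base over the exonic blocks, on the same strand between lists and on the other strand within a list. Peaks called gained or lost had no such overlap in the other treatment of their line. Host types were read from the deposited gene types, in place of a reference annotation, with the RefSeq type as an alternative. RefSeq gene spans and start windows (GRCh38.p14) were matched by symbol and chromosome, for 98.4% of coding, 48.5% of antisense, 55.2% of other lncRNA and 84.4% of pseudogene hosts. Classes were compared within each list, and the 4 differences were tested by exact sign flips. No genome was used, so sequence beyond the start windows was not searched. Python 3.11.15 and scipy 1.17.1 were used for overlaps and tests.

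Counts were tested in R 4.3.3 with edgeR 4.0.16 (filterByExpr, TMM, quasi-likelihood, Benjamini-Hochberg adjustment at 0.05) on all 15826 genes that passed the filter, with totals between 18492273 and 23763098 per library. DESeq2 1.42.0, other filters and scalings, the replicate block and each library left out were alternatives. Whether the samples of a group were separate cultures is not stated, so p-values measure only the spread between these libraries. As a check of pairing, the contrast of number 1 with number 2 was computed under each treatment, and the contrasts correlated with r = 0.91 over 15826 genes, although genes are no independent replicates. The MeRIP-seq numbering, 1 for HSC3 and 2 for CAL33, is the source of the pairing, and the RNA-seq labels go against it. On simulated counts with 200 changed genes, edgeR found 135 when blocked, at the cost of 14 false calls over the 15172 genes tested, and 0 without the block. These counts were drawn with the number effect and the dispersions of the blocked fit, so the advantage of blocking was built in. The simulation is therefore no test of the pairing.

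The members, the lists and the tests were chosen with earlier results of these data known. Hosts were named by rule, leaving out hosts without a symbol and XIST and Y-linked genes. The rule took the 6 noncoding and 6 coding hosts in all lists with the highest smallest fold enrichment, the 5 of each kind with most peaks, the 2 strongest peaks per list at a false discovery rate of at most 0.05, the 3 strongest gains and losses in both lines, the 3 strongest pseudogenes, and the members of 2 fixed lists (32 well-known lncRNAs and 23 genes of the m6A machinery). The hosts of the printed sequences and of the paired peaks on opposite strands were chosen after their values were seen.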

Additional observations from a re-analysis of the deposited data

Results flagged for a closer look

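Several measures of the exon-only peaks moved in opposite directions with rapamycin in HSC3 and CAL33. Each line had 1 pair of libraries per condition, so none of these differences between the lines was tested. Exon-only peaks numbered 4 more with rapamycin in HSC3 and changed by -78 in CAL33, a difference between the lines of 82. Their share of the list changed by -0.0082 and 0.529 percentage points (difference -0.537). The share over a false discovery rate of 0.05 changed by -7.84 and 4.24 points (difference -12.1). The share on noncoding hosts changed by -1.51 and 5.28 points (difference -6.79), and that on antisense hosts by -1.12 and 2.02 points (difference -3.15). The share of antisense-host peaks opposite another peak changed by 2.41 and -1.12 points (difference 3.53).

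Of the 20 noncoding and 55 coding hosts with overlapping peaks in all lists, only the 12 named by rule were compared. They had the highest smallest fold enrichments of their kind, so they do not stand for the others. Of these 12, 5 had a log2 fold enrichment that moved oppositely in the lines. Where several peaks of a list overlapped, the highest of any class was taken. MT-RNR1 changed by 1.05 in HSC3 and -4.62 in CAL33 (difference 5.68), IER5 by 3.38 and -2.46 (difference 5.84) and BRWD1 by 4.04 and -2.49 (difference 6.53). KLHL36 changed by -2.63 and 1.58 (difference -4.22) and FURIN by -0.91 and 1.52 (difference -2.43). The changes of IER5 and FURIN include 3′UTR peaks. Between exon-only peaks of HSC3, FURIN went from 67.3 to 126 with rapamycin, a log2 change of 0.90, the same direction as in CAL33. IER5 went from exon-only control peaks of 39.3 and 149 to 126 in HSC3, log2 changes of 1.68 and -0.24. Of the peaks shared by the treatments, 38.2% in HSC3 and 43.2% in CAL33 differed by more than 4-fold.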

How the results depend on the processing

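Besides the alternatives planned at the outset, 7 were added after seeing the data: leaving out peaks that lie opposite another peak, RefSeq gene types, overlap on either strand, and other rules for the overlap of antisense hosts. The share of exon-only peaks in a list moved to 18.3% in HSC3 control at a false discovery rate of at most 0.05, and to 17.9% in HSC3 rapamycin and 16.4% in CAL33 rapamycin without peaks opposite another peak. The noncoding share of hosts was 38.2% in HSC3 control at that false discovery rate. Without peaks opposite another peak it was 37.3%, 34.1%, 26.3% and 30.04% (HSC3 control, HSC3 rapamycin, CAL33 control, CAL33 rapamycin), and with RefSeq types, which cover matched hosts only, 30.8%, 29.9%, 22.4% and 23.5%. At that false discovery rate, the mean log2 ratio of fold enrichment to CDS peaks went from 0.12 to 0.30 (exact permutation p = 0.125). The ratio to 3′UTR peaks turned from -0.04 to 0.011 at a false discovery rate of at most 0.05. Sharing between treatments fell to 22.9%, 22.3%, 22.4% and 25.4% when the overlap had to cover 50% of the shorter peak, and rose to 44.0%, 45.2%, 37.7% and 41.1% when an exon-only peak anywhere on the same host gene counted. These rules count fewer and more pairs by their construction, and the cause of the other shifts was not tested.

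In RNA-seq, 0 hosts were called in the design as written, 114 with the replicate block and 2 with DESeq2. The share of all genes called was 8.15% with the block and was not computed for DESeq2. Leaving out each library in turn gave 0 each time, where the lone library of an arm was assumed to vary like the others. In those fits the log2 fold change ranged from -0.013 to 0.95 for MALAT1, the lowest being without control 2, from -0.84 to 2.57 for RHOB, the lowest without rapamycin 1, and from -5.91 to 2.92 for UCA1, the highest without control 1. It kept its sign for KITLG (-2.13 to -0.34), MT-RNR2 (0.80 to 1.62), NEAT1 (0.63 to 2.28) and TMEM198B (0.73 to 1.20). The 6 blocked calls among the named hosts therefore rest on the pairing. The remaining recalculations of the group values kept their direction or moved by less than the spread. The unknown MeRIP-seq depth and the single pair of libraries per list limit each peak value.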

Other observations

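Fold enrichments were not spread evenly over their range. The commonest value was 11.2 in HSC3 control (356 of 3930 peaks), 10.9 in HSC3 rapamycin, 17 in CAL33 control and 10.7 in CAL33 rapamycin. Between 10 and 60, the exon-only values lay within 0.06 of a whole multiple of a step of 2.81, 2.74, 2.13 and 2.68 in 75.4%, 66.7%, 60.6% and 74.3% of cases, where the tolerance covered 4.28%, 4.39%, 5.63% and 4.48% of the range. Peaks of other classes did so in 65.7%, 63.0%, 54.9% and 63.8%. The step differed between lists, so equality of values cannot be compared between and within lists.

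Some exon-only peaks were listed more than once on the same strand. Of all 2722, 7.09% overlapped another peak of their own list and strand. Counted from each exon-only member, so that most pairs count from both sides, these made 201 pairs, 117 within the same gene, and 56.2% had exactly the same fold enrichment. MALAT1, NEAT1 and ZBED1 were examples.

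Of the exon-only peaks, 1 shared bases with an annotated microRNA hairpin, on COL3A1, a collagen chain. There the hairpin of MIR3606 lay partly under an exonic block of a peak with a fold enrichment of 44.9 in HSC3 control. The antisense RNA of PINK1, a kinase of mitophagy, had a peak opposite a PINK1 exon-only peak in HSC3 control, HSC3 rapamycin and CAL33 control. The fold enrichments were 8.63 against 9.9 in HSC3 control and 209 on both strands in CAL33 control, and the antisense gene totalled 1186 RNA-seq counts beside 7178 for PINK1.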
